A study of Mus musculus with 8 samples.

Results

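Integrins and laminins are the receptors and the basement membrane ligands that join a heart muscle cell to its matrix, and the values below are their transcript levels in hearts of mice that lack an enhancer of Actn2, the gene of sarcomeric alpha-actinin. The genes were chosen by symbol: every row named as an integrin alpha or beta subunit or as a laminin alpha, beta or gamma chain was taken, which gave 37 of the 24516 genes in the table. They comprised 18 integrin alpha subunits, 8 integrin beta subunits, 5 laminin alpha chains, 3 beta chains and 3 gamma chains. Of these, 36 passed the filter on low counts and were tested, and 1, Lama1, did not pass.

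The study made the deletion with CRISPR/Cas9 and sequenced bulk RNA of hearts at postnatal day 40 (P40), the age of every group. HOMO hearts (n = 3) carried the deletion on both alleles, HET hearts (n = 3) on 1 allele, and WT hearts (n = 2) on none. The labels place all hearts in the same litter. They give neither the strain nor the number of founder lines, and pooling of animals is not mentioned, so the p-values measure the spread between these 8 libraries. Levels are in CPM, read counts scaled to a common library size, after adjustment by the trimmed mean of M values, and differences are log2 fold changes fitted with edgeR. Its quasi-likelihood p-values were adjusted over 15075 genes by the Benjamini-Hochberg method, and a gene was called, or passed, at an adjusted p under 0.05. In fits without WT 1 or without WT 2, WT is a single library assumed to vary like the other groups. The p-values of those fits hold no WT spread.

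An integrin is a pair of 1 alpha and 1 beta subunit in the plasma membrane that binds matrix outside the cell and, through talin and other adaptors, the actin cytoskeleton inside. A laminin is a cross-shaped trimer of an alpha, a beta and a gamma chain that polymerises into the basement membrane sheet. In cardiac and skeletal muscle the sheet around each fibre holds laminin with the alpha 2 chain, which integrin alpha 7 beta 1 and dystroglycan bind, while vessels hold laminins with the alpha 4 and alpha 5 chains; loss of Lama2 or of Itga7 causes muscular dystrophy in mice.

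Libraries held between 22230090 and 55902737 counts, so that 1 count was worth between 0.0174 and 0.0454 CPM. Actn2 was at 2115, 1611 and 1791 CPM in HOMO hearts, at 1693, 1546 and 1638 CPM in HET hearts, and at 2187 and 2703 CPM in WT hearts. The correlation of log CPM between WT hearts, 0.952, was below that of all 15 pairs of deletion libraries, 0.969 to 0.982, and WT 2 correlated with the deletion libraries at 0.927 to 0.935, against 0.957 to 0.966 for WT 1. Xist was above 100 CPM in HOMO 2, HET 2, HET 3 and WT 2 and at most 6.22 CPM in the other libraries. Summed over 10 cardiomyocyte markers, expression was 71658 to 81728 CPM in HOMO, 71186 to 75179 CPM in HET and 85549 to 99130 CPM in WT hearts. Of the 10, which include Actn2 itself, 2 were higher and 2 lower in HOMO, and 2 higher and 4 lower in HET than in WT hearts. These are 40% in HOMO, beside 27.7% of all genes, and 60% in HET hearts, beside 28.0%. Ryr2 (log2 fold change 1.12 in HOMO and 1.20 in HET hearts) and Ttn (0.83 in HOMO and 0.76 in HET hearts) rose, and Myl2 (-1.06 in HOMO and -0.91 in HET hearts) and Tnni3 (-0.76 in HOMO and -0.71 in HET hearts) fell. Neither Myl2 nor Tnni3 passed without WT 2, and their HET calls were lost without any 1 HET library and the Tnni3 call in HOMO hearts without HOMO 1 or HOMO 2. The atrial light chain Myl7 was at 0.177 to 0.366 CPM in HOMO, at 0.272 to 0.684 CPM in HET and at 6.59 and 14.2 CPM in WT hearts. Of 8 atrial markers tested, 1 was higher and 5 lower in HOMO and likewise 1 higher and 5 lower in HET than in WT hearts. These are 75% in each, beside 27.7% of all genes in HOMO and 28.0% in HET hearts. The summed CPM of the 9 listed overlapped, at 164 to 418 in HOMO, 149 to 479.6 in HET and 388 to 649 in WT hearts. The part of these markers in the differences below was not tested.

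Per length of transcript, the beta 1 integrin subunit led all 37 genes in each genotype. Itgb1 had 207 ± 3.05 CPM per kb in HOMO hearts, 211 ± 24.9 in HET hearts and 104 ± 29.7 in WT hearts (SD, n = 3, 3 and 2). Lamb2, the beta 2 chain, came next, with 77.6 ± 3.93 CPM per kb in HOMO, 68.7 ± 4.53 in HET and 91.7 ± 7.42 in WT hearts. In HOMO and HET hearts every library's Itgb1 level was above every library's Lamb2 level, whereas in WT hearts the ranges of both genes overlapped.

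Itga7, the alpha subunit of the muscle laminin receptor, was the highest alpha integrin in every group, at 46.6 ± 5.59 CPM per kb in HOMO, 38.6 ± 1.29 in HET and 48.1 ± 12.7 in WT hearts. Lamc1, the gamma 1 chain shared by most laminins, had 41.6 ± 7.76 CPM per kb in HOMO, 43.0 ± 6.42 in HET and 27.9 ± 10.5 in WT hearts. The libraries of Itga7 and Lamc1 overlapped in HOMO and in HET hearts, and in WT hearts Itga7 was above Lamc1 in both libraries. Lama2 ranked 6 of 37 in HOMO hearts (25.3 ± 2.99 CPM per kb), 7 in HET hearts (22.0 ± 2.01) and 12 in WT hearts (14.7 ± 5.52). It overlapped the next gene in that order, Lamb1, in HOMO hearts, both neighbours, Lamb1 and Itga9, in HET hearts, and the one above it, Itga9, in WT hearts. At the low end, Lama1, the embryonic alpha 1 chain, had 4 counts in HOMO 3, 6 counts in WT 1 and none in the other 6 libraries, where a count of 0 allows up to 3 counts, or 0.0523 to 0.136 CPM.

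**Figure D1:**
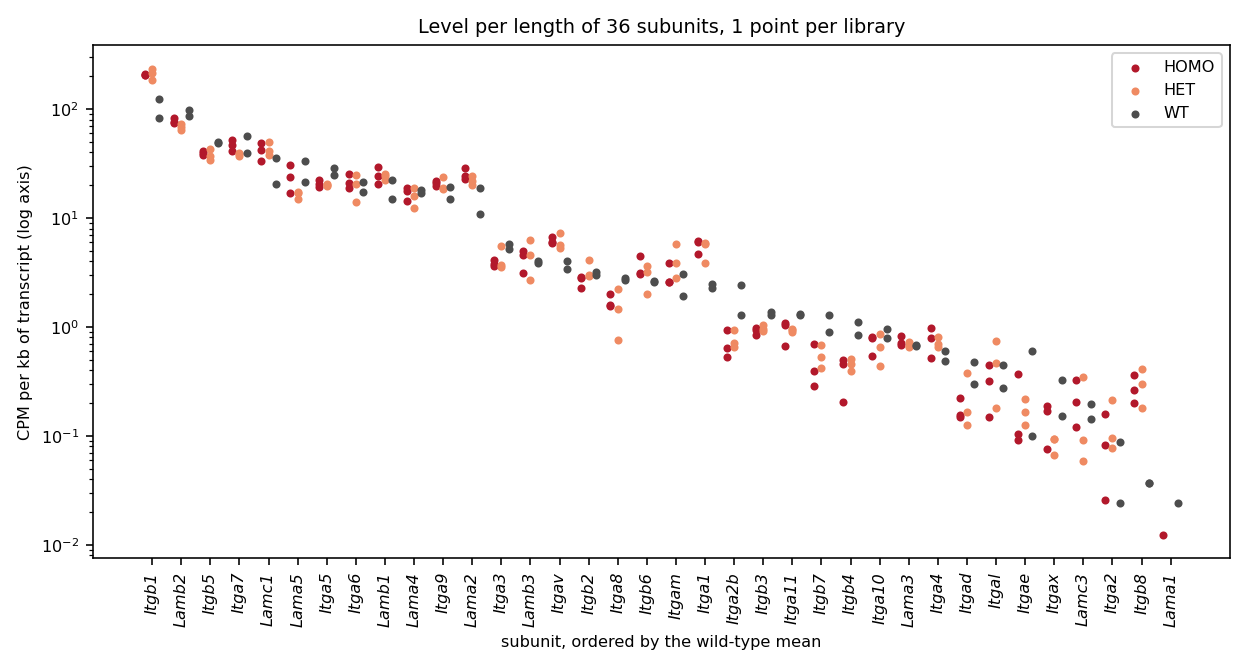
Level of 36 integrin and laminin genes in CPM per kb of its representative transcript on a log axis, with a point per library coloured by genotype, libraries at 0 not drawn, and genes ordered by their WT mean. Itgb1 has the highest mean in all genotypes, and the Itgb8 points of the WT hearts lie below those of the HOMO and HET hearts.

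Over all 36 genes tested, 8 passed in HOMO against WT hearts, 5 higher and 3 lower, which is 22.2% beside 27.7% of all 15075 genes, of which 15.3% were higher and 12.4% lower. In HET against WT hearts 10 passed, 4 higher and 6 lower, which is 27.8% beside 28.0% of all genes, with 15.2% higher and 12.8% lower. HOMO and HET hearts were set against the same WT libraries, so the comparisons share them. Both shares are near the background, so the count itself is not a result about these genes. The median log2 fold change was -0.06 in HOMO and -0.02 in HET hearts, and -0.03 over all genes in each. At an unadjusted p under 0.05 there were 13 of 36 in HOMO and 13 in HET hearts, beside 40.2% of all genes in HOMO and 40.2% in HET hearts. Libraries did not overlap for 20 of 36 genes (55.6%) in HOMO against WT, beside 54.8% of all genes, and for 19 (52.8%) in HET against WT, beside 51.3%.

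**Figure D2:**
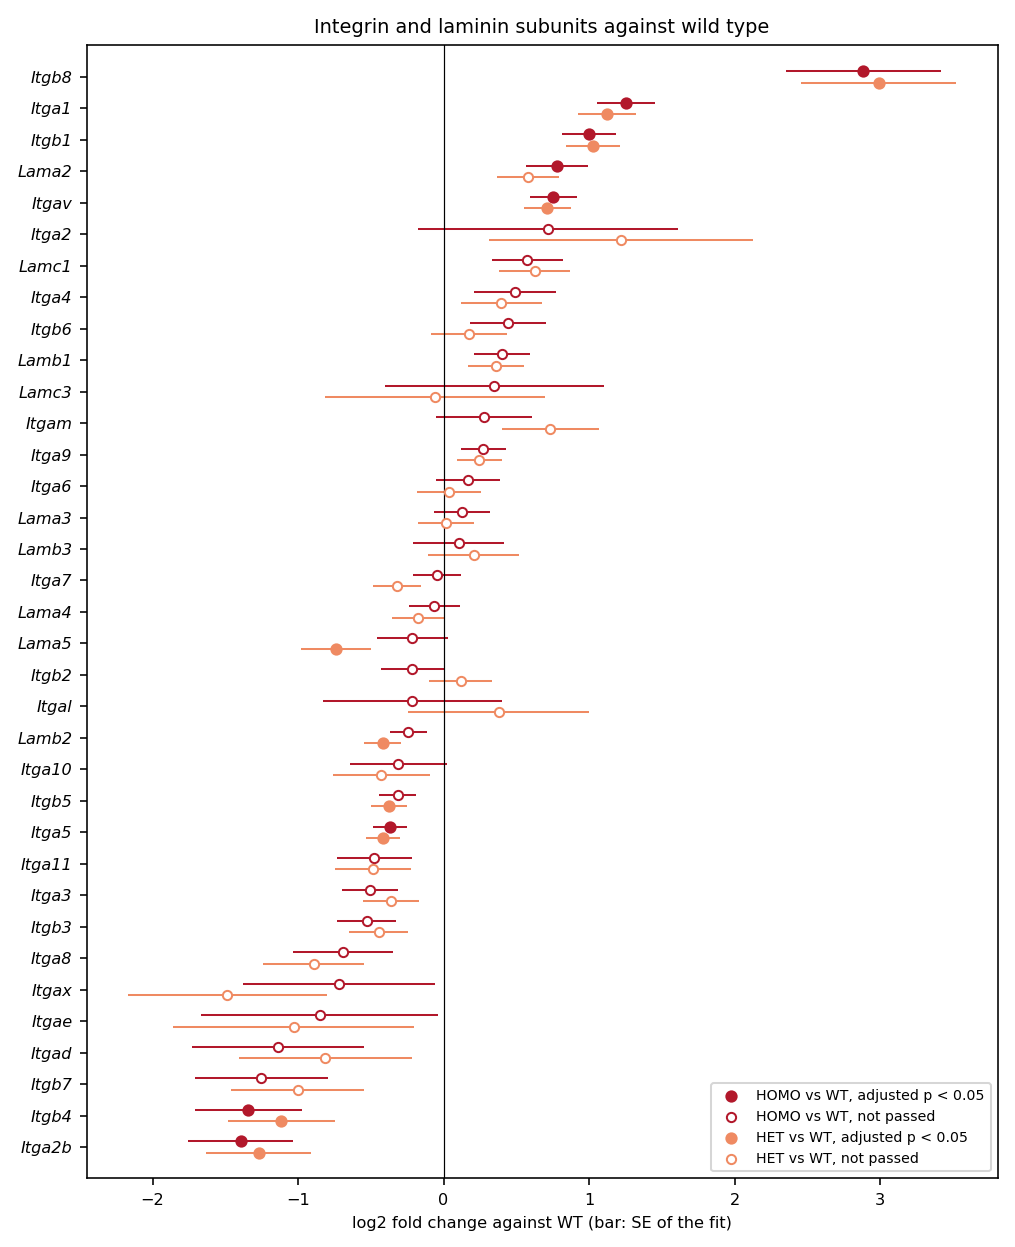
Log2 fold change of 35 tested integrin and laminin genes in HOMO against WT and in HET against WT hearts, with bars of 1 SE and filled points where the edgeR adjusted p was under 0.05. Itgb8, Itga1, Itgb1 and Itgav lie to the right in both genotypes, and Itgb4 and Itga2b to the left.

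Among the laminin chains, by edgeR's test, Lama2 rose in HOMO hearts, and Lama5 and Lamb2 fell in HET hearts, while Lama4, Lamb1 and Lamc1 did not pass in either comparison. Of the 6 chains of muscle and vessel laminins, 1 was higher and 0 lower in HOMO than in WT hearts, and 0 were higher and 2 lower in HET than in WT hearts. These are 16.7% of the 6 in HOMO, beside 27.7% of all genes, and 33.3% in HET hearts, beside 28.0%, so the counts are no result about these chains. In bulk tissue, fewer cells of a type and less RNA per cell cannot be told apart.

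Lama2 (chromosome 10, 26980036 to 27619758, minus strand; GENCODE vM21 on mm10, as for the genes below) had 275, 235 and 219 CPM in HOMO hearts, 231, 192 and 212 CPM in HET hearts, and 179 and 104 CPM in WT hearts. All 6 deletion libraries were above both WT libraries, and the WT libraries differed more from each other than the libraries within HOMO or within HET did. The level was 1.72-fold higher in HOMO than in WT hearts (log2 fold change 0.78, SE 0.21, edgeR adjusted p = 0.0207), and for HET against WT hearts it gave 0.58 (SE 0.21, edgeR adjusted p = 0.0628), which missed the threshold. The HET difference was called by DESeq2's Wald test (adjusted p = 0.0232) and by limma-voom (adjusted p = 0.0452). Without WT 2, the HOMO value was 0.47 (edgeR adjusted p = 0.0848) and the HET value 0.27 (edgeR adjusted p = 0.311). The HOMO call was also lost without HOMO 1 (0.68, edgeR adjusted p = 0.0697), and without WT 1 the HET value passed (1.03, edgeR adjusted p = 0.000861).

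Lamc1, which pairs with the alpha 2 chain in the muscle trimer, had 375, 319.6 and 256 CPM in HOMO, 382, 316 and 286 CPM in HET, and 269 and 156 CPM in WT hearts. Its libraries overlapped between HOMO and WT hearts, through HOMO 3 and WT 1, and did not overlap between HET and WT hearts. It did not pass in HOMO against WT (0.58, SE 0.24, edgeR adjusted p = 0.102) or in HET against WT (0.63, SE 0.24, edgeR adjusted p = 0.0786). DESeq2's Wald test called it in both (adjusted p = 0.0458 in HOMO and 0.0273 in HET hearts), and limma-voom in neither (adjusted p = 0.0761 in HOMO and 0.0572 in HET hearts). Without WT 1 both passed, at 1.03 in HOMO (edgeR adjusted p = 0.00535) and 1.08 in HET hearts (edgeR adjusted p = 0.00430), and without WT 2 they were 0.27 in HOMO and 0.32 in HET hearts.

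Lamb1, the beta 1 chain, did not pass. It had 171, 139.6 and 118 CPM in HOMO, 140.3, 146 and 130.0 CPM in HET, and 129 and 87.0 CPM in WT hearts, with log2 fold changes of 0.40 (edgeR adjusted p = 0.144) in HOMO and 0.36 (edgeR adjusted p = 0.190) in HET hearts. Without WT 1 it passed, at 0.72 in HOMO (edgeR adjusted p = 0.0117) and 0.68 in HET hearts (edgeR adjusted p = 0.0161). WT 2 was the lowest of the 8 libraries for Lama2, Lamb1, Lamc1 and Itgb1.

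Lamb2, the beta chain of synaptic and mature vessel laminins, had 462, 428 and 421 CPM in HOMO, 359.7, 410.4 and 389 CPM in HET, and 546 and 487 CPM in WT hearts. The genotypes did not overlap, with HET hearts lowest and WT hearts highest. The difference passed in HET against WT (log2 fold change -0.42, SE 0.13, edgeR adjusted p = 0.0330) and missed the threshold in HOMO against WT (-0.24, SE 0.13, edgeR adjusted p = 0.186), and HOMO against HET gave 0.18 with an unadjusted p of 0.155. The HET call was lost on leaving out any 1 of 7 of the 8 libraries, all but WT 2 (edgeR adjusted p = 0.0519 to 0.0979).

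Lama5, the alpha 5 chain of endothelial and epithelial basement membranes, varied widely within genotypes. It had 192, 269 and 348 CPM in HOMO, 171, 192 and 199 CPM in HET, and 380.1 and 246 CPM in WT hearts, so that HET hearts lay below WT hearts while HOMO hearts spanned both. The log2 fold change was -0.74 in HET against WT (SE 0.24, edgeR adjusted p = 0.0452), with a value of -0.38 (edgeR adjusted p = 0.302) without WT 1. That call was also lost without HOMO 2 or any 1 HET library (edgeR adjusted p = 0.0662 to 0.118). In HOMO against WT it was -0.21 (SE 0.24, edgeR adjusted p = 0.551). Lama4, the other vascular alpha chain, had 107, 114 and 86.1 CPM in HOMO, 74.0, 113 and 96.9 CPM in HET, and 104 and 110.1 CPM in WT hearts, and the genotypes overlapped (edgeR adjusted p = 0.826 for HOMO and 0.501 for HET against WT).

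Of the 4 tested chains of epithelial and other laminins, edgeR called 0 in HOMO and 0 in HET against WT hearts. Of all genes, 27.7% were called in HOMO and 28.0% in HET hearts. For these chains there were 0 at an unadjusted p under 0.05 and 0 calls by DESeq2's Wald test or limma-voom. Lama3, the epithelial alpha 3 chain, was between 6.91 and 8.67 CPM in all 8 libraries, and its HOMO, HET and WT means were 7.77, 7.20 and 7.12 CPM.

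**Figure D3:**
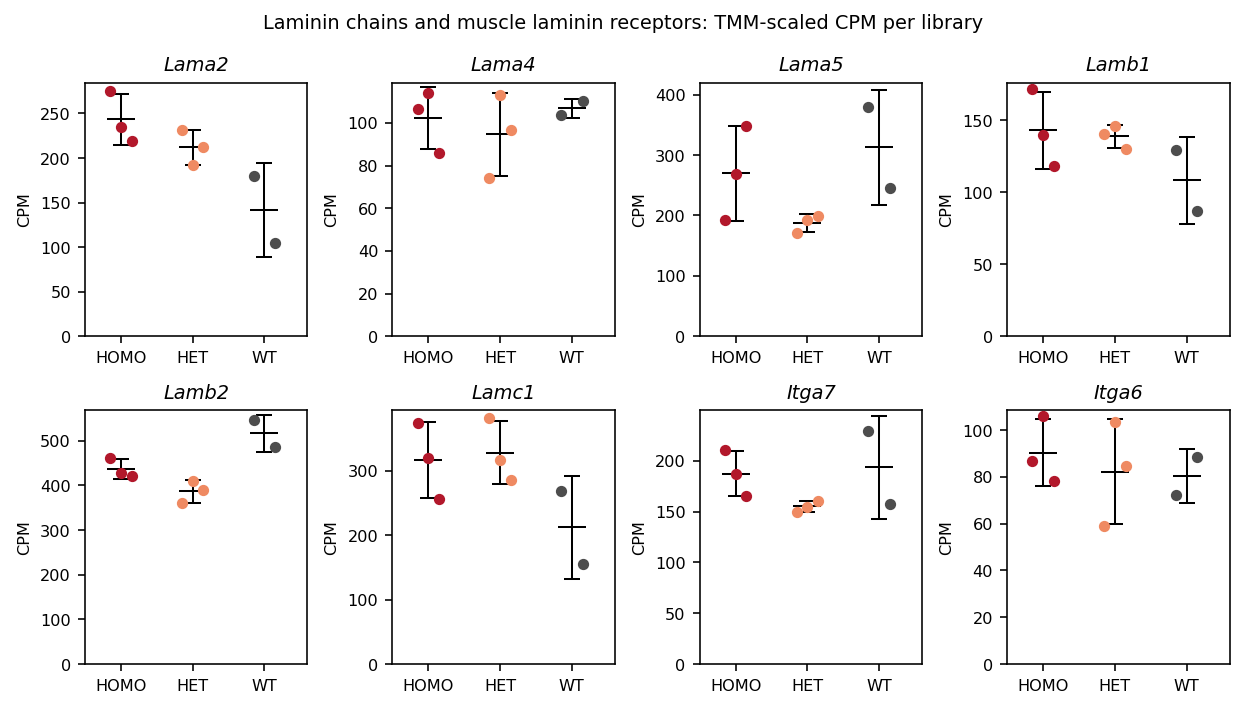
TMM-scaled CPM of 6 laminin chains and of the laminin receptor subunits Itga7 and Itga6, with a point per library, a line at the mean and bars of 1 SD (HOMO n = 3, HET n = 3, WT n = 2). Lama2 points of HOMO and HET hearts lie above both WT points, Lamb2 points lie below them, and HOMO and WT points of Lama5 and Itga7 overlap.

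As shares of the summed CPM per kb of the 5 alpha chains, Lama2 made up 38.1 ± 5.94% in HOMO, 40.4 ± 5.42% in HET and 23.9 ± 3.93% in WT hearts (SD). Lama5 made up 35.3 ± 9.22% in HOMO, 30.0 ± 1.05% in HET and 44.9 ± 4.06% in WT hearts. The Lama2 share was higher in every deletion library than in both WT libraries, and the Lama5 share of the HOMO hearts had the widest spread. These shares carry no test of their own.

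Of the muscle laminin receptor's subunits, Itgb1 rose in both deletion genotypes, and Itga7 did not pass in either; the difference between the genes was not tested. Itgb1 (chromosome 8, 128685654 to 128733200, plus strand) encodes the beta 1 subunit, the partner of most matrix-binding alpha subunits. It had 792, 777 and 799.6 CPM in HOMO hearts, 818, 895 and 706 CPM in HET hearts, and 475 and 315 CPM in WT hearts. The deletion libraries lay far above both WT libraries, with log2 fold changes of 0.998 in HOMO (SE 0.19, edgeR adjusted p = 0.00395) and 1.03 in HET hearts (SE 0.19, edgeR adjusted p = 0.00319).

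Itga7 (chromosome 10, 128933818 to 128958282, plus strand) had 210.2, 187 and 165 CPM in HOMO, 150.0, 155 and 160.4 CPM in HET, and 229.6 and 157 CPM in WT hearts. Both deletion genotypes overlapped the WT range. The log2 fold change was -0.05 in HOMO (SE 0.17, edgeR adjusted p = 0.866) and -0.32 in HET hearts (SE 0.17, edgeR adjusted p = 0.177), and without WT 2 the HET value passed, at -0.54 (edgeR adjusted p = 0.0306). Of the summed CPM per kb of the alpha integrins, Itga7 made up 34.6% in HOMO, 31.1% in HET and 35.6% in WT hearts.

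The other alpha subunits that bind laminin did not pass. Itga6, found on endothelium and epithelium, had 86.6, 106 and 78.2 CPM in HOMO, 58.8, 103 and 84.6 CPM in HET, and 72.1 and 88.5 CPM in WT hearts, with overlap of all genotypes (edgeR adjusted p = 0.606 in HOMO and 0.920 in HET hearts). Itga3, a partner of beta 1 in epithelial adhesion, had 16.9, 17.9 and 19.4 CPM in HOMO, 25.7, 17.2 and 16.8 CPM in HET, and 27.0 and 24.2 CPM in WT hearts. All HOMO values of Itga3 were below both WT values (log2 fold change -0.50, edgeR adjusted p = 0.0749), and HET 1 lay within the WT range (-0.36 in HET hearts, edgeR adjusted p = 0.188). Without HET 1 both passed, at -0.48 in HOMO (edgeR adjusted p = 0.0312) and -0.56 in HET hearts (edgeR adjusted p = 0.0284).

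Itgb4, the hemidesmosomal partner of alpha 6, fell in both deletion genotypes at a low level. It had 3.05, 2.81 and 1.27 CPM in HOMO, 2.81, 3.13 and 2.43 CPM in HET, and 6.90 and 5.20 CPM in WT hearts, without overlap, and the log2 fold changes were -1.34 (SE 0.37, edgeR adjusted p = 0.0211) in HOMO and -1.11 (SE 0.37, edgeR adjusted p = 0.0454) in HET hearts. Without WT 1 neither passed, at -1.12 in HOMO (edgeR adjusted p = 0.0717) and -0.89 in HET hearts (edgeR adjusted p = 0.148). The HET call was lost on leaving out any library but HOMO 3 (edgeR adjusted p = 0.0531 to 0.148). The summed CPM of 8 Schwann cell and neural markers, a cell type that uses alpha 6 beta 4, was 87.7 to 95.3 in HOMO, 89.5 to 119.6 in HET and 117 to 139.5 in WT hearts. The HET and WT sums overlapped. Of the 8, 0 were higher and 1 lower in HOMO hearts (12.5%, beside 27.7% of all genes). In HET hearts 0 were higher and 2 lower (25%, beside 28.0%). The part of these markers in the Itgb4 result was not tested. For 8 epithelial markers the sum was 1.53 to 2.08 CPM in HOMO, 1.44 to 1.94 CPM in HET and 1.42 to 1.93 CPM in WT hearts, with Krt5 at 0 in all libraries and Sftpc at 0 in HOMO hearts.

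Itga1, Itgav, Itgb1 and Itgb8 were the integrin genes higher than in WT hearts in both HOMO and HET hearts, and their promoters are shown for that reason, as letters that can be read beside the values. The windows lie around the RefSeq transcript start (build GRCm38.p6), 300 bases each, read in the direction of transcription. They are at chr13:115101915-115102214 (minus) for Itga1, chr2:83724147-83724446 (plus) for Itgav, chr8:128685404-128685703 (plus) for Itgb1 and chr12:119238227-119238526 (minus) for Itgb8. Capitals mark the GC box GGGCGG or its reverse complement.
Itga1: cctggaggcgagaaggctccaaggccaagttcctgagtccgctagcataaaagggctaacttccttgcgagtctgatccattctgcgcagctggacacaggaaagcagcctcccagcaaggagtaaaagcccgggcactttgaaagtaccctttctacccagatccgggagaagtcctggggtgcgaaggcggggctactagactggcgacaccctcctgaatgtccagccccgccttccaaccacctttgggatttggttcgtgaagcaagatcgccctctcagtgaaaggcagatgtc
Itgav: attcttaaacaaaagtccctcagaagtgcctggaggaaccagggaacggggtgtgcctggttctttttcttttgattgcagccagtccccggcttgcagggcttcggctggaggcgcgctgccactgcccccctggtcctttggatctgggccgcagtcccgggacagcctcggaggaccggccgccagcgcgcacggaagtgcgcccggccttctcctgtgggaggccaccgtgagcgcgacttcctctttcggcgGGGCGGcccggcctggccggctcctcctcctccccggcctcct
Itgb1: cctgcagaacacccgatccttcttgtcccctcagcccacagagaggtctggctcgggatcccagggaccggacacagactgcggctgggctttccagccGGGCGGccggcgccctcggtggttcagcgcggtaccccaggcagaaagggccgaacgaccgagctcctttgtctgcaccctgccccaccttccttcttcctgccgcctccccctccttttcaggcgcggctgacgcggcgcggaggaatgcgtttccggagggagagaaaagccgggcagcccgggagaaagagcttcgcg
Itgb8: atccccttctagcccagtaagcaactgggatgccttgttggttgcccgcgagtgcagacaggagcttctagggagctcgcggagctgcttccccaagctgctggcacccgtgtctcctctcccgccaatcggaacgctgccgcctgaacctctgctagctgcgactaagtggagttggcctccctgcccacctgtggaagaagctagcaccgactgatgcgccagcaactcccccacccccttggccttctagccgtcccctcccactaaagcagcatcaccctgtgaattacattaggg
The table held 26 windows of 23 of the 37 genes. The share of G and C was 56.7% for Itga1, 67.3% for Itgav, 67.3% for Itgb1 and 60.7% for Itgb8, against a median of 52.7% over 32851 promoters. Searched on both strands, GGGCGG was in the Itgav and the Itgb1 windows and in 35.7% of all promoters, CCAAT in the Itgb8 window and in 37.4% of all, and CATTCC, the core of the M-CAT element of muscle genes, in the Itgb1 window and in 14.7% of all. TATAAA was in none of these 4 windows and in 13.6% of all promoters. A match describes the letters and not a bound site.

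Of the 4 collagen receptor subunits, 1 was called in HOMO and 1 in HET hearts, and it was Itga1. This is 25% of the 4 in each, beside 27.7% of all genes in HOMO and 28.0% in HET hearts. The count is thus no result about these receptors. Itga1 (chromosome 13, 114953096 to 115101964, minus strand), which binds collagen with beta 1, had 68.0, 66.2 and 51.7 CPM in HOMO, 62.8, 64.5 and 42.4 CPM in HET, and 26.9 and 25.1 CPM in WT hearts. No deletion library reached down to the WT level. The level was 2.38-fold that of WT in HOMO hearts (log2 fold change 1.25, SE 0.20, edgeR adjusted p = 0.00180) and 2.18-fold in HET hearts (1.12, SE 0.20, edgeR adjusted p = 0.00276). Itga1 lies on the chromosome of Actn2, 102.612 Mb away, and the part of position in its result was not tested. Its neighbour Itga2, another collagen receptor subunit 20996 bases from it, was at or below 1.50 CPM and did not pass. The Itga2 log2 fold change was 0.72 in HOMO (SE 0.90, edgeR adjusted p = 0.588) and 1.22 in HET hearts (SE 0.91, edgeR adjusted p = 0.348). Itga10 and Itga11, collagen receptors of cartilage and fibroblasts, were between 2.22 and 6.55 CPM and did not pass either. The exons of Itga10 share 33.5% of their length with the annotated gene Gm42957 on the same strand, so its counts are uncertain.

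**Figure D4:**
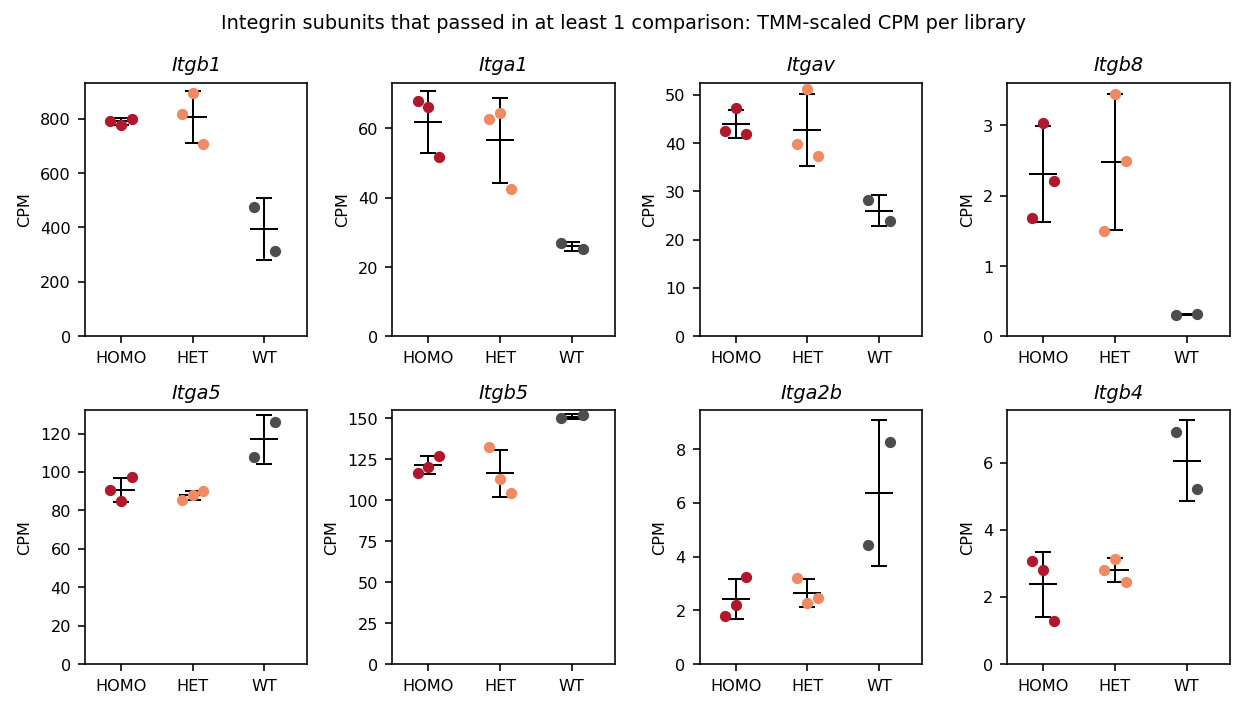
TMM-scaled CPM of integrin subunits, with a point per library, a line at the mean and bars of 1 SD (HOMO n = 3, HET n = 3, WT n = 2). Itgb1, Itga1, Itgav and Itgb8 points of HOMO and HET hearts lie above the WT points, and Itga5, Itgb5, Itga2b and Itgb4 points lie below them.

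Of the 8 subunits of receptors for the RGD motif of fibronectin and vitronectin, 2 were higher and 2 lower in HOMO, and 2 higher and 3 lower in HET than in WT hearts. These are 50% of the 8 in HOMO, beside 27.7% of all genes, and 62.5% in HET hearts, beside 28.0%. Itgav and Itgb8 were higher, and Itga5 and Itga2b were lower, in each deletion genotype. Itgb5 was lower in HET hearts.

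Itgav (chromosome 2, 83724397 to 83806916, plus strand), the alpha partner of beta 3, 5, 6 and 8, had 42.6, 47.3 and 41.9 CPM in HOMO, 39.7, 51.1 and 37.2 CPM in HET, and 28.3 and 23.8 CPM in WT hearts. The groups were apart, and the log2 fold change was 0.75 in HOMO (SE 0.16, edgeR adjusted p = 0.00737) and 0.71 in HET hearts (SE 0.16, edgeR adjusted p = 0.00910).

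Itgb8 (chromosome 12, 119158022 to 119238802, minus strand), whose pairing with alpha v activates latent TGF-beta, had the largest fold change of the 36 genes in each comparison with WT. It had 1.68, 3.03 and 2.21 CPM in HOMO hearts (55, 174 and 75 counts), 1.50, 3.44 and 2.50 CPM in HET hearts (33, 110 and 73 counts), and 0.308 and 0.312 CPM in WT hearts (8 and 9 counts). The lowest deletion library was several times the WT level, and the fitted difference was 7.39-fold in HOMO (log2 fold change 2.89, SE 0.53, edgeR adjusted p = 0.00375) and 7.94-fold in HET hearts (2.99, SE 0.53, edgeR adjusted p = 0.00302). The WT value thus rested on 17 counts in all.

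Itga5, the fibronectin receptor subunit, had 90.7, 84.7 and 97.2 CPM in HOMO, 85.5, 87.8 and 90.3 CPM in HET, and 108 and 126 CPM in WT hearts. Its log2 fold change was -0.37 in HOMO (SE 0.12, edgeR adjusted p = 0.0399) and -0.41 in HET hearts (SE 0.12, edgeR adjusted p = 0.0243), and without WT 2 neither passed (HOMO -0.22, edgeR adjusted p = 0.296, HET -0.27, edgeR adjusted p = 0.187). The HOMO call was lost on leaving out any library but WT 1, and the HET call without any 1 HET library (edgeR adjusted p = 0.0567 to 0.135). Itgb5, a vitronectin receptor subunit, had 117, 121 and 127 CPM in HOMO, 133, 113 and 104 CPM in HET, and 150.2 and 152 CPM in WT hearts. It passed in HET hearts (-0.37, SE 0.13, edgeR adjusted p = 0.0472) and not in HOMO hearts (-0.32, SE 0.13, edgeR adjusted p = 0.0855), and the HET call was lost on leaving out any library but HET 1 (edgeR adjusted p = 0.0605 to 0.153). Both genes were below WT in all 6 deletion libraries.

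Beside these genes, the summed CPM of 12 endothelial markers was 1272 to 1591 in HOMO, 1332 to 1467 in HET and 1882 to 1915 in WT hearts. Of these, 0 were higher and 5 lower in HOMO, and 1 higher and 4 lower in HET hearts, or 41.7% in each. The sum of 12 fibroblast markers was 2549.6 to 3376 in HOMO, 3067 to 3630.0 in HET and 4332 to 5148 in WT hearts. Among them, 0 were higher and 4 lower in HOMO (33.3%), and 0 higher and 3 lower in HET hearts (25%). Of all genes, 27.7% were called in HOMO and 28.0% in HET hearts, so the fibroblast counts are near the background. The sums of 12 smooth muscle and pericyte markers overlapped, at 1873 to 2049.7 CPM in HOMO, 1821 to 2201 CPM in HET and 1972 to 2144 CPM in WT hearts. Among those 12, 1 was higher and 3 lower in HOMO, and 1 higher and 6 lower in HET than in WT hearts. These are 33.3% in HOMO, beside 27.7% of all genes, and 58.3% in HET hearts, beside 28.0%. Abcc9 rose by 1.06 in HOMO and 0.87 in HET hearts on the log2 scale, and the contractile genes Myh11 (-1.88 in HOMO and -2.02 in HET hearts), Tagln (-2.25 in HOMO and -1.76 in HET hearts) and Cnn1 (-3.51 in HOMO and -3.93 in HET hearts) fell. Without WT 2, Tagln passed in neither comparison and Cnn1 not in HOMO hearts, and Myh11 was at -1.13 in HOMO and -1.26 in HET hearts. Their part in the results for Lama5, Lamb2, Itga5 and Itgb5 was not tested.

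Itga2b, the platelet and megakaryocyte subunit, had 1.80, 2.21 and 3.25 CPM in HOMO, 3.22, 2.25 and 2.46 CPM in HET, and 4.43 and 8.28 CPM in WT hearts. The log2 fold change was -1.40 in HOMO (SE 0.36, edgeR adjusted p = 0.0165) and -1.27 in HET hearts (SE 0.36, edgeR adjusted p = 0.0249). WT 2 was the highest library, and without it the value was -0.84 in HOMO (edgeR adjusted p = 0.211) and -0.72 in HET hearts (edgeR adjusted p = 0.287). The HOMO call was also lost without HOMO 1 or HOMO 2, and the HET call without HET 2 or HET 3 (edgeR adjusted p = 0.0561 to 0.0858). The 8 platelet markers summed to 18.6 to 27.4 CPM in HOMO, 22.1 to 25.8 CPM in HET and 27.0 to 29.1 CPM in WT hearts, with Gp6 at 0 in all HET libraries. Of the 6 tested, 0 were called in HOMO hearts, beside 27.7% of all genes. In HET hearts 1 was higher and 0 lower, which is 16.7%, beside 28.0% of all genes. The higher one was Gp1ba (log2 fold change 1.05, edgeR adjusted p = 0.0226). The median log2 fold change of the 6 was -0.21 in HOMO and -0.77 in HET hearts. The part of these markers in the Itga2b result was not tested.

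Of the other RGD-binding subunits, Itga8 had 9.31, 11.6 and 8.97 CPM in HOMO, 4.40, 13.0 and 8.45 CPM in HET, and 16.4 and 15.8 CPM in WT hearts, and it did not pass (log2 fold change -0.69 in HOMO, edgeR adjusted p = 0.161, and -0.89 in HET hearts, edgeR adjusted p = 0.0787). Itgb3, the partner of alpha IIb and alpha v, was between 4.82 and 5.67 CPM in HOMO, between 5.32 and 5.99 CPM in HET, and at 7.40 and 7.90 CPM in WT hearts (edgeR adjusted p = 0.0777 for HOMO and 0.130 for HET). Itgb6, an epithelial subunit, had 14.7, 21.4 and 14.9 CPM in HOMO, 9.62, 17.6 and 15.2 CPM in HET, and 12.5 and 12.6 CPM in WT hearts. All HOMO libraries were above both WT libraries and the HET libraries lay on both sides of them, and the gene did not pass (log2 fold change 0.44 in HOMO, edgeR adjusted p = 0.231, and 0.18 in HET hearts, edgeR adjusted p = 0.651).

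The list of 9 mainly leukocyte subunits, which also holds Itga9, gave 0 calls against WT hearts by edgeR with all 8 libraries and genotype as the only term. Of all genes, 27.7% were called in HOMO and 28.0% in HET hearts. The list had 1 unadjusted p under 0.05 in HOMO and 0 in HET hearts. DESeq2's Wald test and limma-voom each called Itgb7 lower in HOMO hearts and none in HET hearts. Itga9, a subunit of lymphatics and muscle that binds tenascin and VCAM1, had 152, 147 and 138 CPM in HOMO, 168, 129 and 131 CPM in HET, and 136 and 106 CPM in WT hearts (log2 fold change 0.27 in HOMO, edgeR adjusted p = 0.216, and 0.24 in HET hearts, edgeR adjusted p = 0.268), and without WT 1 the HOMO value passed (0.47, edgeR adjusted p = 0.0441). Itgam, the myeloid alpha subunit, was at 9.53 to 14.4 CPM in HOMO, 10.3 to 21.5 CPM in HET and 7.10 to 11.3 CPM in WT hearts. In HET hearts edgeR called Itgam when a term for the replicate number, or a term for libraries of high Xist, was added. Of the exon length of Itgam, 68.7% is shared with the annotated transcript Gm49368 on the same strand, so its counts are uncertain. Itgb2, its beta partner, was at 6.79 to 8.52 CPM in HOMO, 8.73 to 12.3 CPM in HET and 8.91 and 9.41 CPM in WT hearts. Itga4, Itgb7, Itgad, Itgae, Itgal and Itgax were below 10 CPM in all libraries.

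Between HOMO and HET hearts, 0 of 36 genes passed edgeR's test, and none of all 15075 genes did (0%). At an unadjusted p under 0.05 there was 1 gene, Lama5, beside 2.73% of all genes, and DESeq2's Wald test and limma-voom also called 0 of the 36. Lama5 was higher in HOMO than in HET hearts by 0.53 on the log2 scale (SE 0.22, unadjusted p = 0.0378, edgeR adjusted p = 0.9996), with HOMO 1 at 192 CPM inside the HET range. Itga7 was above HET in all HOMO libraries, at 187 ± 22.5 CPM in HOMO and 155 ± 5.20 CPM in HET hearts (log2 fold change 0.27, SE 0.15, unadjusted p = 0.0955, edgeR adjusted p = 0.9996). Besides Itga7, the libraries of Lamb2 (HOMO higher) and Itgb2 (HOMO lower) did not overlap, 3 of 36 in all (8.33%), beside 11.3% of all genes.

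Within the beta integrins, Itgb1 made up 81.2 ± 0.659% of the summed CPM per kb of the 8 beta subunits in HOMO, 81.8 ± 1.57% in HET and 63.3 ± 6.91% in WT hearts, and Itgb5 made up 15.6% in HOMO, 14.8% in HET and 31.0% in WT hearts. Among alpha subunits, Itga1 made up 4.19% in HOMO, 4.15% in HET and 1.77% in WT hearts, and Itgav 4.64% in HOMO, 4.87% in HET and 2.75% in WT hearts. All deletion libraries lay on 1 side of the WT libraries for these 4 shares. In CPM, libraries did not overlap for 54.8% of all genes in HOMO and 51.3% in HET against WT. Shares of a sum depend on each other, so a higher Itgb1 lowers the Itgb5 share. The level of Itgb5 itself was 0.80-fold that of WT in HOMO and 0.77-fold in HET hearts. These shares carry no test of their own.

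The fold changes of these genes varied with transcript length and base composition. Over the 36 genes, Spearman's rho of the HOMO log2 fold change was 0.51 with transcript length, 0.41 with 3' UTR length and -0.62 with GC content, and over 13915 genes it was 0.41 with transcript length, 0.36 with 3' UTR length and -0.43 with GC content. For the HET log2 fold change it was 0.37, 0.41 and -0.61 in that order of properties, beside 0.38, 0.35 and -0.47 over all genes. The correlations are across genes that share the same libraries and are given as a description. The transcript of Itgb8 is 8403 bases long with 40.4% GC and that of Itga1 10967 bases with 42.8% GC.

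After each library was corrected for these properties, 5 genes passed in HOMO (14.7% of all genes passed) and 4 in HET hearts (13.8%). Itgb1 and Itgb8 kept their calls in both, at log2 fold changes of 0.70 and 2.07 in HOMO and 0.72 and 2.16 in HET hearts (edgeR adjusted p between 0.0143 and 0.0236). Itga1 gave 0.44 in HOMO (edgeR adjusted p = 0.165) and 0.28 in HET (edgeR adjusted p = 0.384), and Itgav 0.14 in HOMO and 0.09 in HET. Lama2 gave 0.34 in HOMO, and Itga1, Itgav and Lama2 did not pass. Itga5 and Itga2b also lost their calls in both genotypes, and Itgb4, Itgb5 and Lamb2 lost theirs in HET hearts. Itgb4 kept its call in HOMO (-1.26, edgeR adjusted p = 0.0380) and Lama5 in HET hearts (-0.79, edgeR adjusted p = 0.0497), and Itga8, and in HOMO also Itgb3, passed after correction as lower.

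Without WT 2, 5 genes passed in HOMO (13.7% of all genes) and 7 in HET hearts (15.1%), and Itgb1, Itga1, Itgav and Itgb8 were among them in each. Leaving out any 1 of the 8 libraries lost no call of these 4 genes in either genotype. For Itgb1 the value was 0.77 in HOMO hearts (edgeR adjusted p = 0.0106), and for Itgb8 it was 2.93 (edgeR adjusted p = 0.0197). With both changes together 0 of 36 passed in either genotype by edgeR, beside 5.35% of all genes in HOMO and 5.12% in HET hearts, and 5 genes in HOMO and 7 in HET hearts had an unadjusted p under 0.05. In that fit, as in every fit without WT 1 or without WT 2, WT is a single library, assumed to vary like the other groups.

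**Figure D5:**
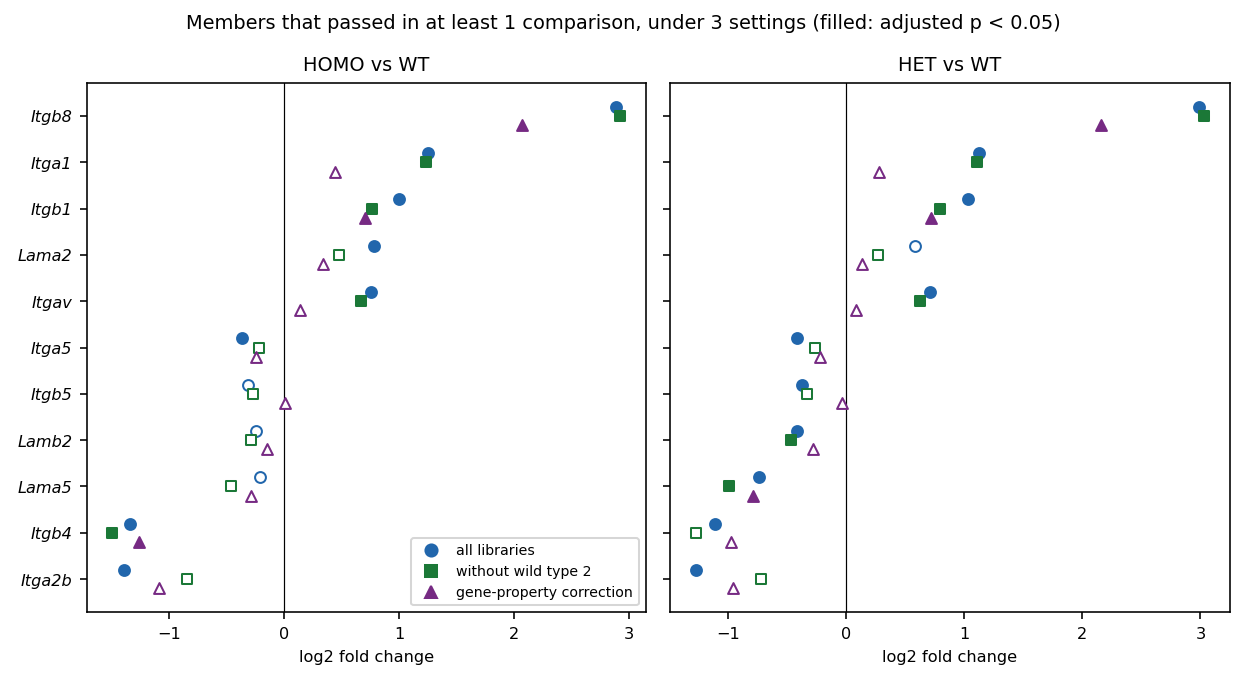
Log2 fold change, in HOMO and in HET against WT hearts, of the 11 integrin and laminin genes that passed in either comparison, under 3 settings: all libraries, without WT 2, and with the correction for gene properties. Filled points have an edgeR adjusted p under 0.05. Itgb1 and Itgb8 are filled in all 3, whereas Itga1, Itgav and Lama2 move towards 0 with the correction.

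The same differences were computed within the libraries of low Xist and within those of high Xist, with 1 WT library in each class and no test. HOMO 2 was the only HOMO library of high Xist, and HET 1 the only HET library of low Xist. Itgb1 was above WT by 0.74 (low Xist) and 1.30 (high Xist) on the log2 scale in HOMO hearts, and by 0.78 and 1.34 in HET hearts. Itga1 was above WT by 1.15 and 1.40 in HOMO hearts and by 1.23 and 1.09 in HET hearts, and Itgb8 by 2.66 and 3.28 in HOMO and by 2.28 and 3.25 in HET hearts. Lama2 was above WT by 0.46 and 1.17 in HOMO hearts, and for Itga7 the HOMO values had opposite signs, -0.29 and 0.25. Signs were also opposite in HOMO hearts for Lama5 (-0.49 and 0.13) and Lama4 (-0.10 and 0.05). In HET hearts they were opposite for Itga6 (-0.29 and 0.09) and Itga7 (-0.61 and 0.000828).

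The partners of these receptors were described from 4 lists. Other laminin receptors, the dystroglycan complex and the enzymes that glycosylate it, had 6 of 14 genes higher and 2 lower in HOMO, and 6 higher and 3 lower in HET hearts, with median log2 fold changes of 0.43 in HOMO and 0.42 in HET hearts. These are 57.1% of the list in HOMO, beside 27.7% of all genes, and 64.3% in HET hearts, beside 28.0%. Sgcd, a sarcoglycan, had a mean of 59.3 ± 2.42 CPM in HOMO, 63.7 ± 2.88 CPM in HET and 10.3 ± 1.73 CPM in WT hearts (edgeR adjusted p = 1.50e-05 for HOMO and 1.35e-05 for HET against WT). Rpsa, a ribosomal protein also described as a laminin receptor, had 462, 479 and 479.9 CPM in HOMO, 606, 545 and 569.5 CPM in HET, and 676 and 1340.5 CPM in WT hearts. It fell by 1.09 on the log2 scale in HOMO (edgeR adjusted p = 0.00651) and by 0.81 in HET hearts (edgeR adjusted p = 0.0229), and without WT 2 it was -0.48 in HOMO (edgeR adjusted p = 0.0318) and -0.21 in HET hearts (edgeR adjusted p = 0.339). The HET call was also lost without HET 2 or HET 3 (edgeR adjusted p = 0.0777 and 0.0689).

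Ligands of integrins gave 0 higher and 10 lower of 17 genes in HOMO, and 0 higher and 9 lower in HET hearts, with median log2 fold changes of -0.75 in HOMO and -0.87 in HET hearts. The lower ones are 58.8% of the list in HOMO, beside 12.4% of all genes lower, and 52.9% in HET hearts, beside 12.8%. Tgfb1, whose latent form binds alpha v integrins, had 32.4 ± 0.637 CPM in HOMO, 32.7 ± 1.05 CPM in HET and 66.9 ± 18.5 CPM in WT hearts (log2 fold change -1.05 in HOMO, edgeR adjusted p = 0.00132, and -1.03 in HET hearts, edgeR adjusted p = 0.00130). Mfge8, an RGD protein for alpha v beta 3 and beta 5, fell by 0.75 in HOMO and 0.91 in HET hearts, the matrix glycoprotein Thbs1 by 1.54 in HOMO and 1.04 in HET hearts, and the endothelial protein Egfl7 by 0.96 in HOMO and 0.94 in HET hearts. WT 2 was the highest library for all 4, and Thbs1 was at 25.4 CPM in WT 1 and 43.7 CPM in WT 2. Without WT 2, Thbs1 gave -1.07 in HOMO (edgeR adjusted p = 0.0399) and -0.57 in HET hearts (edgeR adjusted p = 0.249), and its HET call was also lost without HET 2 or HET 3 (edgeR adjusted p = 0.0719 and 0.0623). Tgfb1 then gave -0.70 in HOMO and -0.69 in HET hearts and Egfl7 -0.61 in HOMO and -0.59 in HET hearts, and both still passed. The endothelial and fibroblast marker sums given above were lower too, and their part here was not tested.

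Of 34 adaptors and tetraspanins of the adhesion complex, 3 were higher and 11 lower in HOMO, and 3 higher and 9 lower in HET than in WT hearts. Those called are 41.2% of the list in HOMO, beside 27.7% of all genes, and 35.3% in HET hearts, beside 28.0%. Tln2, a talin of mature striated muscle that links beta subunits to actin, rose by 1.01 in HOMO (edgeR adjusted p = 0.00239) and by 0.86 in HET hearts (edgeR adjusted p = 0.00464), with 182 ± 14.8 CPM in HOMO, 164 ± 24.1 CPM in HET and 90.7 ± 18.2 CPM in WT hearts. Sorbs3, a vinculin-binding protein, fell by 1.01 in HOMO and 0.99 in HET hearts. The tetraspanin Cd9 fell by 0.91 in HOMO and 0.82 in HET hearts, and Lims2, a PINCH partner of integrin-linked kinase, by 0.86 in HOMO and 0.82 in HET hearts.

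Of 22 other basement membrane genes, 3 were higher and 4 lower in HOMO, and 2 higher and 2 lower in HET hearts. These are 31.8% in HOMO, beside 27.7% of all genes, and 18.2% in HET hearts, beside 28.0%, so the counts are no result about the list. Agrn, a proteoglycan that binds laminin and dystroglycan, fell by 0.72 in HOMO and 0.95 in HET hearts, and Col18a1, a collagen of vessel basement membranes, by 0.83 in HOMO and 0.70 in HET hearts. Frem2 rose by 1.02 in HOMO and 1.29 in HET hearts, and Ntn1, a laminin-related netrin, rose by 0.59 in HOMO hearts (edgeR adjusted p = 0.0148) and gave 0.38 in HET hearts (edgeR adjusted p = 0.0786). Without WT 2 the calls of Agrn (-0.44, edgeR adjusted p = 0.0537) and Frem2 (0.77, edgeR adjusted p = 0.0660) in HOMO and of Col18a1 in HET hearts (-0.61, edgeR adjusted p = 0.0934) were lost. The Col18a1 call was also lost without HET 1 (edgeR adjusted p = 0.0616) and the Ntn1 call in HOMO hearts without HOMO 2 (edgeR adjusted p = 0.0518), and without HET 1 Ntn1 passed in HET hearts (0.54, edgeR adjusted p = 0.0149).

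Several of the named genes overlap other annotated transcripts, and whether reads were counted by strand is not given in the sources used here. The exons of Lama2 share 3.86% of their length with its antisense gene Gm48084, those of Itgav 5.90% with Gm13684, those of Itga1 3.68% with Gm49395 and those of Itgb4 7.66% with B230344G16Rik, so reads from these stretches cannot be assigned to 1 gene.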

How the data were processed

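Bulk RNA-seq counts of 8 mouse hearts were used as deposited by the authors: a table of raw read counts per gene symbol. Per the submitters' processing notes, the tools were Trimmomatic 0.36, HISAT2, Subread, featureCounts and DESeq2 and the build was mm10; no source used here gives the annotation, the strand setting or the treatment of reads with several alignments. Per the labels, RNA was extracted with Trizol and libraries were made with the TruSeq kit. The series text says that the reads of both WT samples could not be recovered while the counts include them.

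Counts were filtered (edgeR filterByExpr), scaled by TMM and fitted with edgeR 4.0.16 in R 4.3.3 (robust quasi-likelihood F test, two-sided, all 8 libraries in 1 fit with genotype as the only term). The p-values of 15075 genes were adjusted by the Benjamini-Hochberg method. Levels per kb used the transcript with the longest coding sequence in GENCODE vM21, which held all 37 genes. Groups follow the genotype label.

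Alternatives covered DESeq2 1.42.0, limma 3.58.1 (voom), scaling, filtering, a replicate block, leaving out each library, and a correction of each library for GC content and the lengths of the transcript and its 3' UTR (splines of 4 df per property, 13874 genes). A term for libraries with Xist above 100 CPM was added after the data were seen. The scripts were tested on simulated data.

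The genes named are 14 fixed subunits, any other that passed in any comparison, and up to 4 genes per pathway list with the smallest p in HOMO against WT and a mean of at least 1 CPM; the other subunits are given by counts, ranges or, for Itga8, Itgb3, Itgam, Itgb2 and Lama3, by values chosen after they were seen. The subunits and lists were chosen with earlier results of these data known. Counting error alone is covered by the limit given for a count of 0. Some genes are not reported here by name.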

Additional observations from a re-analysis of the deposited data

How the results depend on the processing

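Over 21 alternatives, Itgb1 and Itgb8 passed in 20 in HOMO and in 20 in HET against WT hearts, and failed without WT 2 with the gene-property correction. Itgb1 ranged from 0.50 to 1.33 in HOMO and from 0.51 to 1.36 in HET hearts on the log2 scale. The cause of the changes below was not tested.

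Against 8 genes called in HOMO and 10 in HET hearts, scaling by total counts gave 6 in HET hearts, the gene-property correction gave 5 in HOMO and 4 in HET hearts, and the correction with the replicate block gave 4 in HOMO and 5 in HET hearts. Leaving out 1 library gave 5 to 11 in HOMO and 4 to 9 in HET hearts, and leaving out WT 2 after the correction gave 0 in each. The share of all genes called moved too. It was 26.1% in HET hearts with total counts, 14.7% in HOMO and 13.8% in HET hearts with the correction, 11.1% in HOMO and 9.98% in HET hearts with the correction and block, 13.7% to 36.4% in HOMO and 15.1% to 35.8% in HET hearts with 1 library left out, and 5.35% in HOMO and 5.12% in HET hearts without WT 2 after the correction. All alternatives gave 0 between HOMO and HET hearts. With a term for libraries with Xist above 100 CPM, 8 genes passed in HOMO (27.4% of all genes) and 11 in HET hearts (30.0%). In HOMO hearts this term called Itga3 and lost Itga5. In HET hearts it called Lamc1, Itga8, Itgam and Lama2 and lost Lama5, Itgb4 and Itgb5. The replicate block alone gave 8 calls in HOMO and 10 in HET hearts, 7 of them shared with the fit without it in each. With it, the share of all genes called fell from 27.7% to 22.1% in HOMO and from 28.0% to 22.4% in HET hearts. The block called Lamc1 in HOMO (edgeR adjusted p = 0.0214) and in HET hearts (0.0163) and Lama2 in HET hearts (0.0293). It also called Itgam in HET hearts. As deviations from the group mean, same-numbered libraries correlated at -0.0228 to 0.18 and other pairs at -0.23 to 0.13. With 2 WT libraries, the values of WT 1 and WT 2 mirror each other by construction and hold no information on pairing. HOMO 1 with HET 1 gave 0.18, HOMO 2 with HET 2 gave 0.14 and HOMO 3 with HET 3 gave -0.0228. The check cannot settle whether the numbers pair the libraries, and the main fit did not pair them.

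The sign changed for some genes that did not pass. With the correction, HOMO values were 0.16 for Itga7, -0.0276 for Itga6, -0.0160 for Itga9 and 0.00664 for Itgb5, and HET values were -0.15 for Itga6 and -0.000744 for Itga9. With the correction and the replicate block, HOMO values were 0.19 for Itga7, -0.00610 for Itga6 and 0.0189 for Itgb5, and the HET value of Itga6 was -0.15. With the Xist term, the HET value of Itga6 was -0.0639. Leaving out 1 library gave, in HOMO hearts, -0.26 to 0.26 for Itga7, -0.14 to 0.0464 for Lama4, -0.46 to 0.14 for Lama5 and 0.14 to 0.47 for Itga9. In HET hearts it gave -0.31 to 0.00105 for Lama4, -0.16 to 0.25 for Itga6, 0.11 to 0.44 for Itga9 and 0.27 to 1.03 for Lama2. Without WT 2 after the correction, HOMO values were -0.18 for Lama4, -0.53 for Lama5 and -0.0966 for Itga9, and HET values -0.0763 for Itga9 and -0.14 for Lama2. Leaving libraries out for the list genes was chosen after the data were seen. The WT group has 2 libraries, and genes near 1 CPM rest on few counts.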
